A study of Mus musculus with 10 samples.

Results

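The genes described here are 10 known targets of the cAMP responsive element modulator (CREM) in the testis, measured in the adrenal gland of mice with and without a working Crem gene. They were chosen by name: Prm1, Prm2, Tnp1, Tnp2, Odf1, Odf2, Fhl5, Ldhc, Pgk2 and Akap4. Each has 1 probe (a transcript cluster) annotated to that gene alone, so all 10 were measured, among 19661 genes with such a probe. Whole adrenal RNA of 5 mice labelled Crem knock-out (KO, given as Crem-/- and CREMKO in the labels) and 5 labelled wild-type (WT) was hybridised to whole-transcript arrays, 1 mouse per array. All mice were 8 weeks old, bred on a mix of strains (129Pas x C57Bl/J), untreated, and killed at 0 h circadian time. The labels put KO 1, KO 2 and WT 1 in batch 1, KO 3 and KO 4 in batch 2, KO 5, WT 2, WT 3 and WT 4 in batch 3, and WT 5 in batch 4, and do not say which step a batch stands for. Levels are log2 values from RMA, a method that corrects background, normalises by quantiles and summarises the probes of a gene. Every difference is KO minus WT.

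CREM binds the cAMP responsive element, or CRE, a short palindrome in promoters. In round spermatids an activating form of CREM works with the LIM-domain protein FHL5, also called ACT, and switches on genes that pack the sperm nucleus, build the tail and supply energy to it. Male mice without Crem halt sperm development at the round spermatid stage. The adrenal gland makes steroids in its cortex and catecholamines in its medulla and holds no spermatids, so the comparison asks whether these germ cell targets give signal there, and whether that signal differs between the genotypes.

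Promoter letters are shown because the CRE is the element through which the targets are known to be bound. RefSeq windows of the assembly GRCm38.p6, which run from 250 bases before to 50 bases after a transcript start, were found for 9 of the 10 genes. Both strands were searched for TGACGTCA, for the same 8 letters with up to 1 mismatch, and for its first 5 letters, TGACG, which the whole motif contains. The whole motif was in 0 of the 9 genes, against 2.71% of 15401 genes that had both a probe and a window. A form with up to 1 mismatch was in 4 of the 9 genes (44.4%), in 12 of 28 other spermatid genes (42.9%) and in 13.9% of the 15401. Counted by windows, it was in 4 of the 15 windows of the members and in 12.5% of all 32851. These 5 letters were in 2 of the 9 genes (22.2%) and in 27.8% of all genes with a window. The first 4 stretches below are those around the forms with 1 mismatch, which are in capitals. They lie at chr16:10796854-10796913 for Prm1, chr1:73015960-73016019 for Tnp1 and chr4:25242891-25242950 for Fhl5, all on the minus strand, and at chrX:7067454-7067513 on the plus strand for Akap4. The first base in capitals stands at -64, -94, -72 and -35 from the start in that order. In the other 2 stretches, at chr2:29889606-29889665 for Odf2 and chr7:46861190-46861249 for Ldhc (plus strand), the 5 letters are in capitals. Odf2 has 2 such sites before the start, of which 1 lies in the printed stretch. Ldhc has 2, of which 2 lie in it.
Prm1: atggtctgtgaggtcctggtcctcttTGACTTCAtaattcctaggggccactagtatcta
Tnp1: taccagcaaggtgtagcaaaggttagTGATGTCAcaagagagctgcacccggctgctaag
Fhl5: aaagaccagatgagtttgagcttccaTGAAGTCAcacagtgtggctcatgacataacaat
Akap4: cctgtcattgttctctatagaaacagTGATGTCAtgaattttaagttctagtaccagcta
Odf2: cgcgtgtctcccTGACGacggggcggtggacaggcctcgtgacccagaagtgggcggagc
Ldhc: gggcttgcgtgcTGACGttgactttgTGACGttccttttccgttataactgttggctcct

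These matches describe letters in the windows searched. The genes with and without such letters are not otherwise compared, and binding of CREM was not measured on these arrays.

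The samples were first checked against the labels. All 10 adrenal cortex markers examined gave strong signal, with a median level of 13.24, so the RNA held abundant cortical transcripts. Array medians lay between 7.17 and 7.25, and the correlation between arrays across probes lay between 0.908 and 0.992. The probe of Crem averaged 7.36 in KO and 7.54 in WT and did not separate the genotypes. The difference was -0.18 (standard error 0.26), and 0.16 in a fit with batch as a further term. Since where this probe lies relative to the disrupted part of the gene is unknown here, it does not check the labels. Some arrays stood apart in markers of other tissues. The mean of 9 fat markers reached 12.54 on KO 1 and 12.36 on KO 3, while the other 8 arrays lay between 8.20 and 10.68. The mean of 7 liver markers was 13.26 on KO 1 and 6.58 to 9.22 elsewhere, and that of 9 medulla markers was 8.19 on KO 1 and 11.13 to 12.14 elsewhere. Means were lower in KO for all 10 cortex and all 9 medulla markers, and higher for all 9 fat and all 7 liver markers, with 0 past the adjusted test. In a fit with batch as a further term, 8 of 10 cortex and 9 of 9 medulla markers were lower. In that fit 6 of 9 fat and 6 of 7 liver markers were higher. A gland with less of 1 tissue cannot be told apart from less RNA per cell in whole adrenal RNA.

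In the adrenal, 9 of the 10 targets lay below the median of all probes, and none of the 10 passed the test between KO and WT. RMA gives no detection call, so the position of each mean level among all 25664 probes and among 1012 olfactory receptor genes, sensory receptors not known from the adrenal gland, is given as a description. Probes also differ in how strongly they bind, so a position is not an amount of RNA. The median of all probes was 7.24, with quartiles at 5.96 and 8.69. The olfactory receptor genes had a highest level of 9.62, a median of 4.89 and a 95th percentile of 6.48. Odf2, Prm2 and Prm1 were above that percentile and the other 7 members at or below it. Of all genes, 70.3% were above it.

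**Figure D1:**
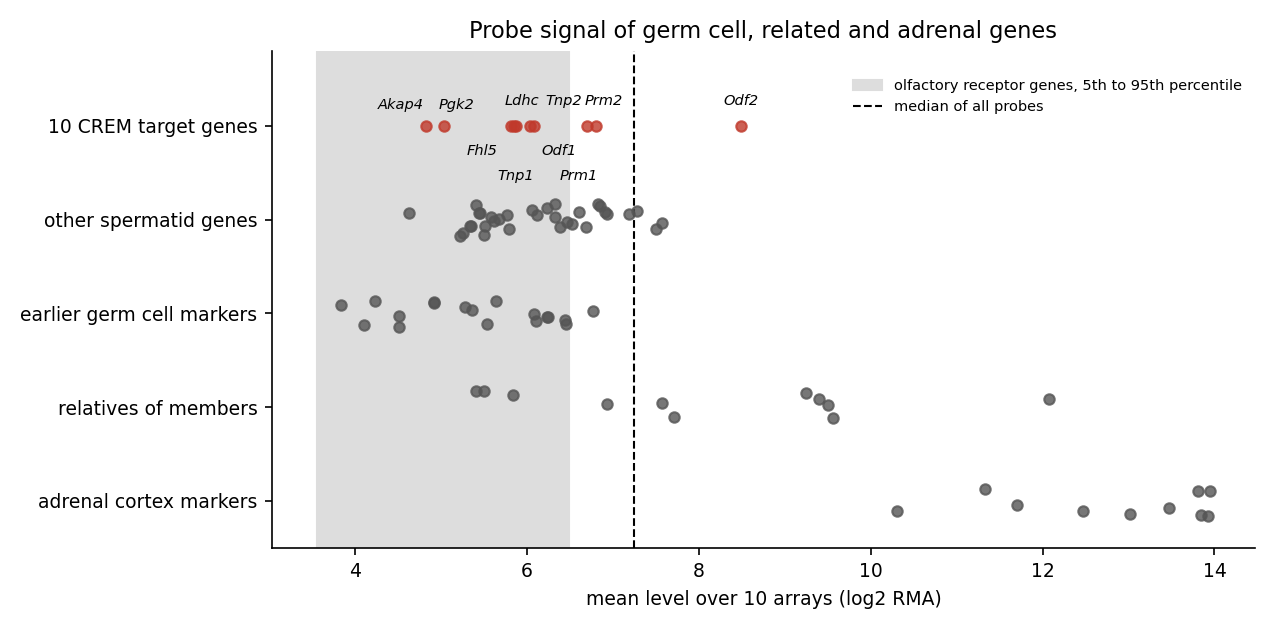
Mean level over the 10 arrays (horizontal axis, log2 RMA) of the 10 CREM target genes and of genes in 4 other lists, 1 point per gene, with random vertical scatter in the lower rows. The grey band spans the 5th to 95th percentile of olfactory receptor genes (3.55 to 6.48) and the dashed line marks the median of all probes (7.24); Odf2 at 8.49 is the only one of the 10 to the right of the line, while all adrenal cortex markers lie above 10.

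The protamines and transition proteins pack sperm DNA. Prm1 and Prm2 encode the protamines, small arginine-rich proteins that replace histones in the sperm head. Prm1 (chromosome 16) had levels of 6.70, 6.59, 6.92, 6.72 and 6.59 on the KO arrays, against 6.93, 6.79, 6.56, 6.52 and 6.61 on the WT arrays. The values overlapped throughout, with the highest on WT 1 and KO 3. The difference was 0.02 (standard error 0.11, 95% interval -0.22 to 0.26), well inside the spread of either genotype (exact permutation p = 0.865, two-sided here and for the other genes). It was -0.15 when batch was blocked (a fit with batch as a further term), -0.29 inside batch 1 and -0.03 inside batch 3. The mean of Prm1 exceeded that of 96.6% of the olfactory receptor genes and 39.3% of all probes.

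Prm2 (chromosome 16) had levels of 7.06, 6.67, 7.11, 6.65 and 6.77 on the KO arrays, against 6.84, 6.45, 6.81, 6.93 and 6.72 on the WT arrays. KO 1 and KO 3, the arrays with the most fat marker signal, held the highest values, but the other 3 KO arrays lay inside the WT range. The difference was 0.10 (standard error 0.13, 95% interval -0.19 to 0.39, exact permutation p = 0.452). It was 0.03 when batch was blocked, 0.03 inside batch 1, 0.04 inside batch 3 and -0.05 without KO 1 and KO 3. The part of fat RNA in it was not tested. Prm2 stood above 97.4% of the olfactory receptor genes and 41.4% of all probes.

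Tnp1 and Tnp2 encode the transition proteins, which hold the DNA after the histones leave and before the protamines arrive. Tnp1 (chromosome 1) had levels of 5.83, 5.49, 5.97, 6.05 and 5.81 on the KO arrays, against 6.29, 5.76, 5.70, 5.59 and 6.18 on the WT arrays. WT 1 and WT 5 were the highest, and KO 2 was the lowest. The difference was -0.08 (standard error 0.16, 95% interval -0.44 to 0.28, exact permutation p = 0.643), and its sign was not the same in the batches, at -0.63 inside batch 1 and 0.12 inside batch 3. When batch was blocked it was -0.23 (standard error 0.19). Tnp1 stood above 84.1% of the olfactory receptor genes.

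Tnp2 (chromosome 16) had levels of 5.98, 6.05, 6.16, 6.32 and 5.99 on the KO arrays, against 6.12, 6.04, 6.02, 6.08 and 6.07 on the WT arrays. The WT values spanned 0.10 or less, and the KO values lay on both sides of them. The difference was 0.03 (standard error 0.09, 95% interval -0.17 to 0.23, exact permutation p = 0.706), against -0.08 when batch was blocked, -0.10 inside batch 1 and -0.06 inside batch 3. Tnp2 stood above 88.4% of the olfactory receptor genes, and its SD over the 10 arrays was 0.10. Tnp2, Prm3, Prm2 and Prm1 lie next to each other on chromosome 16 in the RefSeq table. Prm3, a gene of the same cluster that is not among the 10, averaged 7.63 in KO and 7.52 in WT (difference 0.10, standard error 0.12).

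**Figure D2:**
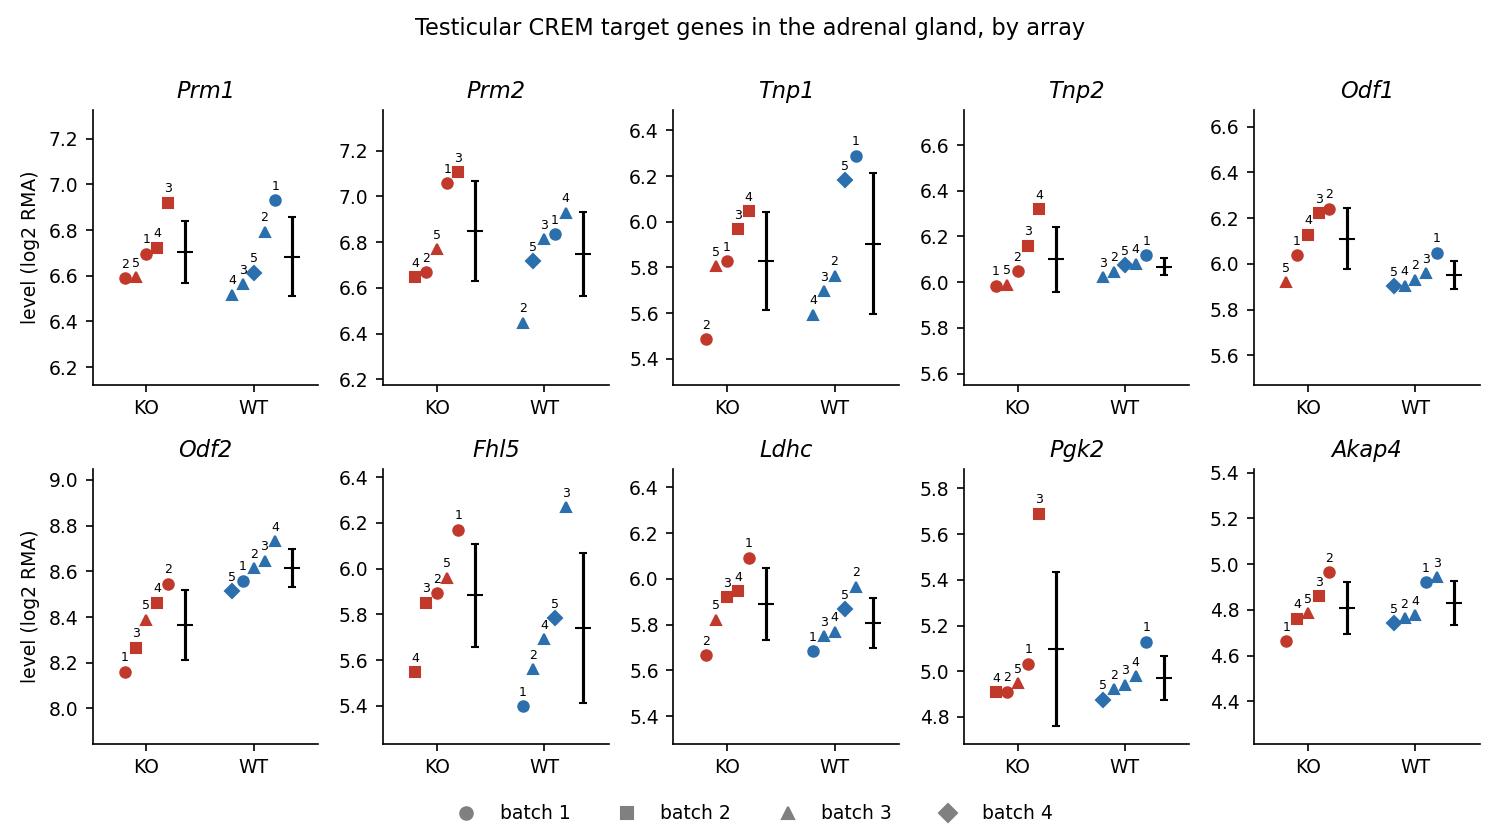
Level of each gene on each array (vertical axis, log2 RMA; every panel spans the same range of log2 units), KO in red and WT in blue, with the mouse number above each point, the shape giving the batch, and the bar showing the mean and SD of 5 arrays. KO and WT overlap in all 10 panels; Odf2 overlaps only through KO 2 (8.55), and Pgk2 on KO 3 (5.69) stands apart from the other 4 KO arrays.

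Odf1 and Odf2 encode proteins of the outer dense fibres, stiff rods along the sperm tail. Odf1 (chromosome 15) had levels of 6.04, 6.24, 6.22, 6.13 and 5.92 on the KO arrays, against 6.05, 5.93, 5.96, 5.91 and 5.90 on the WT arrays. KO 2, KO 3 and KO 4 were above all WT arrays, while KO 1 and KO 5 lay inside their range. The difference was 0.16 (standard error 0.09, 95% interval -0.04 to 0.36, exact permutation p = 0.0556, limma adjusted p = 0.9995). It was 0.04 when batch was blocked, 0.09 inside batch 1 and -0.01 inside batch 3. Batch 2, which holds KO 3 and KO 4, has no WT array, so for those 2 arrays batch and genotype cannot be told apart. Odf1 stood above 87.1% of the olfactory receptor genes.

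Odf2 was the 1 member above the median of all probes. Beyond the sperm tail it encodes a protein of the mother centriole, also called cenexin, which dividing and ciliated cells use. Odf2 (chromosome 2) had levels of 8.16, 8.55, 8.27, 8.46 and 8.39 on the KO arrays, against 8.56, 8.61, 8.65, 8.73 and 8.51 on the WT arrays. It stood above 71.8% of all probes and 99.8% of the olfactory receptor genes. Of the KO arrays, 4 were below every WT array, and KO 2 was above WT 5. The KO mice averaged 8.37 ± 0.15 and the WT mice 8.61 ± 0.08 (mean ± SD of 5 arrays each), a difference of -0.25 (standard error 0.10, 95% interval -0.46 to -0.03), or 0.842 times the WT level.

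Odf2 had an unadjusted limma p of 0.0270 and an exact permutation p of 0.0159, where 5 arrays against 5 allow no p below 0.00794. Its limma adjusted p was 0.9995, so it did not pass the test across all probes. Of all probes, 2.5% were lower in KO at an unadjusted p under 0.05, and 1 of the 10 members was. The difference was -0.21 inside batch 1, -0.27 inside batch 3 and -0.24 when batch was blocked (standard error 0.14, limma adjusted p = 0.583). Its sign was therefore the same in both batches that hold both genotypes, but few arrays stand behind it. In batch 1, KO 2 (8.55) and WT 1 (8.56) were close, and KO 1 was at 8.16. In batch 3, KO 5 (8.39) was the only KO array. The lowest values, on KO 1 and KO 3, were those of the arrays with the highest fat marker means. Without these 2 arrays the Odf2 difference was -0.15 (standard error 0.10, limma adjusted p = 0.947). KO 1 also had the highest liver and lowest medulla marker means, and the part of other tissue in the Odf2 difference was not tested.

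**Figure D3:**
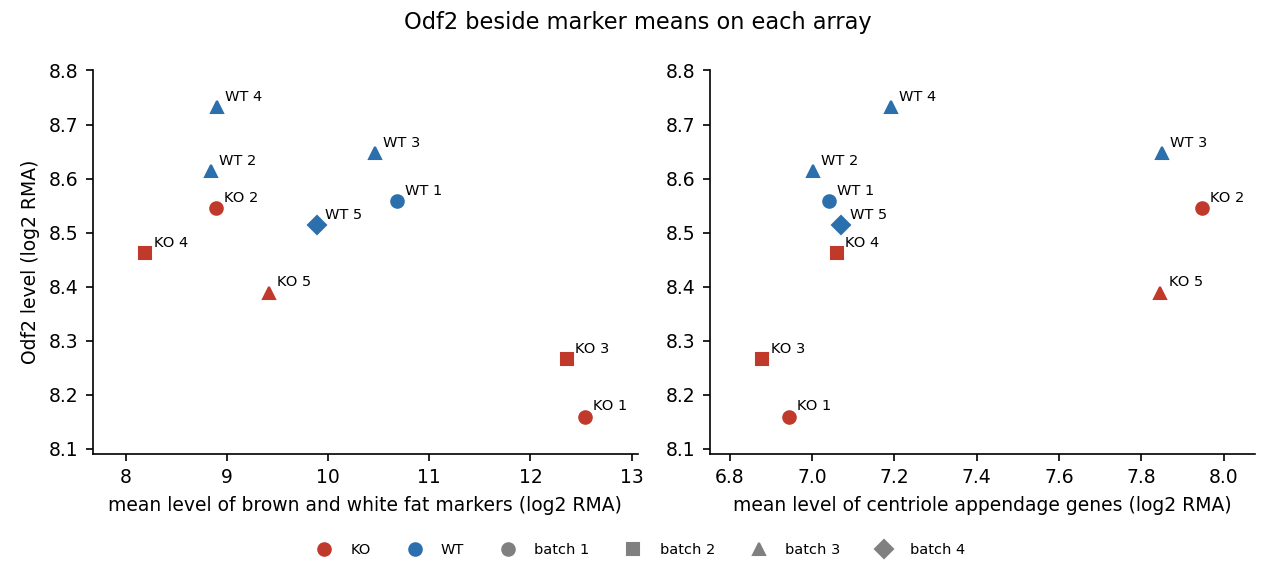
Odf2 level on each array (vertical axis, log2 RMA) against the mean level of 9 fat markers (left) and of 12 centriole appendage genes (right), KO in red, WT in blue, with the shape giving the batch. The 2 arrays with fat marker means above 12, KO 1 and KO 3, have the 2 lowest Odf2 levels (8.16 and 8.27); KO 2, KO 5 and WT 3 have the highest centriole gene means (7.85 to 7.95) with Odf2 levels of 8.55, 8.39 and 8.65.

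Because ODF2 sits on centriole appendages, 12 other genes of these structures were examined beside it. None passed the test, with 8 higher and 4 lower in KO and a median difference of 0.16. Ninl, a ninein-like centrosomal protein, averaged 8.13 in KO and 8.56 in WT (difference -0.43, standard error 0.26), a difference of 0.01 when batch was blocked. The list mean was 7.85 to 7.95 on KO 2, KO 5 and WT 3 and 6.88 to 7.19 on the other 7 arrays, so the high arrays included both genotypes. When batch was blocked the median difference of the list was 0.64. Odf2 did not separate these 3 arrays from the rest.

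Fhl5 encodes the coactivator of CREM in spermatids. Fhl5 (chromosome 4) had levels of 6.17, 5.89, 5.85, 5.55 and 5.96 on the KO arrays, against 5.40, 5.56, 6.27, 5.69 and 5.78 on the WT arrays. The highest value was on WT 3 and the lowest on WT 1, so WT mice spanned the whole range. The difference was 0.14 (standard error 0.17, 95% interval -0.23 to 0.52, exact permutation p = 0.444). It was 0.36 when batch was blocked (standard error 0.23), 0.63 inside batch 1, which has 1 WT array, and 0.12 inside batch 3. Fhl5 stood above 82.6% of the olfactory receptor genes and had the highest SD over arrays of the 10 (0.28).

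Of the other LIM-only genes of the same family, 3 lay higher in the range of all probes, at the 86.4 (Fhl1), 83.3 (Fhl2) and 58.3 (Fhl3) percentiles, while Fhl4 lay at 22.9, beside Fhl5 at 22.5. Fhl1, a muscle-rich member, averaged 9.60 in KO and 9.41 in WT, Fhl2, a coactivator in many tissues, averaged 9.09 in KO and 9.40 in WT, and Fhl3 averaged 7.69 in KO and 7.72 in WT. Fhl4 averaged 5.85 in KO and 5.83 in WT. None of the 4 passed the test. Fhl1 was at 10.86 on KO 1 and 10.20 on KO 3, and at 8.66 to 9.55 on the other 8 arrays.

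Ldhc and Pgk2 encode germ cell forms of glycolytic enzymes. Ldhc, the testis lactate dehydrogenase (chromosome 7), had levels of 6.09, 5.67, 5.92, 5.95 and 5.82 on the KO arrays, against 5.68, 5.97, 5.75, 5.77 and 5.87 on the WT arrays. KO 1 was the highest and KO 2 the lowest, so KO mice spanned the whole range. The difference was 0.08 (standard error 0.10, 95% interval -0.14 to 0.31, exact permutation p = 0.365), against 0.09 when batch was blocked, 0.19 inside batch 1 and -0.01 inside batch 3. Ldhc stood above 83.6% of the olfactory receptor genes. Ldha, the neighbouring gene for the muscle-type subunit, averaged 12.21 in KO and 11.93 in WT, and Ldhb, for the heart-type subunit, 9.50 in KO and 9.29 in WT. Ldha was at 13.15 on KO 1 and 13.24 on KO 3, and at 11.14 to 12.22 elsewhere.

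Pgk2, the testis phosphoglycerate kinase (chromosome 17), had levels of 5.03, 4.91, 5.69, 4.91 and 4.95 on the KO arrays, against 5.13, 4.92, 4.94, 4.98 and 4.88 on the WT arrays. KO 3 was far above the other 9 arrays, which lay between 4.88 and 5.13. The difference was 0.13 (standard error 0.15, 95% interval -0.21 to 0.47, exact permutation p = 0.619). It was -0.02 without KO 3, -0.07 when batch was blocked, -0.16 inside batch 1 and 0.00 inside batch 3. KO 3 lies in batch 2, which holds no WT array. Pgk2 stood above 55.0% of the olfactory receptor genes and 12.3% of all probes. The somatic gene Pgk1 is not given here, since it had no measured probe of its own.

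Akap4 encodes the main anchoring protein of the fibrous sheath of the sperm tail, which ties protein kinase A to it. Akap4 (chromosome X) had levels of 4.66, 4.96, 4.86, 4.76 and 4.78 on the KO arrays, against 4.92, 4.76, 4.94, 4.78 and 4.74 on the WT arrays. KO 1 was the lowest and KO 2 the highest. The difference was -0.02 (standard error 0.09, 95% interval -0.22 to 0.18, exact permutation p = 0.754), against -0.07 when batch was blocked, -0.11 inside batch 1 and -0.04 inside batch 3. Akap4 stood above 47.1% of the olfactory receptor genes and 10.1% of all probes, the lowest position of the 10. Akap3, its partner in the fibrous sheath, averaged 5.51 in KO and 5.48 in WT. Akap1, a mitochondrial anchoring protein of many tissues, averaged 9.49 in KO and 9.62 in WT. The 5 measured subunits of protein kinase A had a median level of 10.40, and 4 of the 5 had lower means in KO, none past the test. When batch was blocked, 4 of the 5 were higher.

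Over the 10 genes, the limma adjusted p was 0.9995 for each of the 10 genes, and 0 of 10 passed an adjusted p of 0.05, as did 0% of all probes. At an unadjusted p under 0.05, 878 probes differed, and 0 of 10 members were higher in KO, against 0.923% of probes. KO and WT values overlapped for all 10, and did not overlap for 0.682% of probes. Means were higher in KO for 7 members and lower for 3. The median difference was 0.06, against -0.01 over all genes. When batch was blocked the count was 4 higher and 6 lower, and the median was -0.07, against -0.06 over all genes. Within batches 1 and 3 the sign was the same for 6 of the 10, and for 4 of these it was also the sign over all arrays. The smallest and largest bounds of the 95% intervals were -0.46, for Odf2, and 0.52, for Fhl5. For each of the 10 members an interval describes the probe signal, which was not shown to be RNA of that gene. Of the 10, 7 lay at or below the 95th percentile of the olfactory receptor genes. On the array where each ranked lowest, Prm1 and Prm2 stood above 94.96% and 94.57% of these receptor genes.

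**Figure D4:**
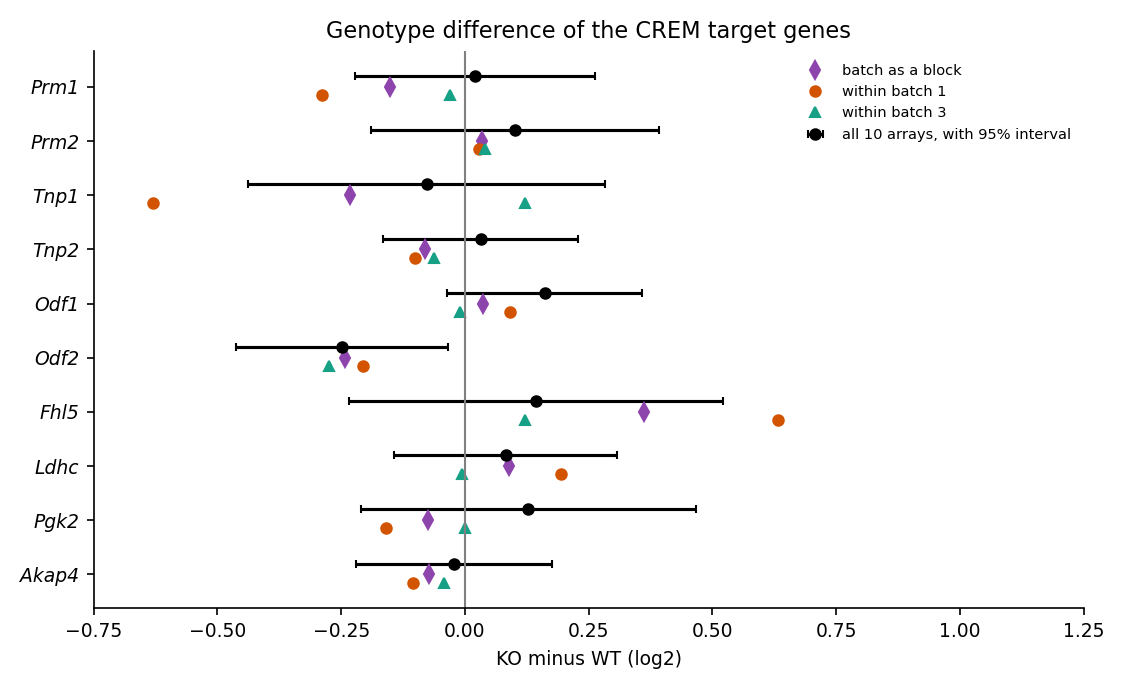
KO minus WT (horizontal axis, log2) for each gene over all 10 arrays with its 95% interval (black), when batch was blocked (purple), inside batch 1 (orange, 2 KO and 1 WT) and inside batch 3 (green, 1 KO and 3 WT). The interval excludes 0 only for Odf2 (-0.46 to -0.03), before adjustment over all probes, and the within-batch values of Tnp1 (-0.63 and 0.12) have opposite signs.

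The 10 genes did not vary together. Over the 10 arrays the 45 pairs had correlations from -0.83 to 0.67 with a median of 0.07, and 27 were above 0, with both genotypes and all batches in each value. Their median SD over arrays was 0.161, against 0.159 for the olfactory receptor genes and 0.248 for all probes. No array was the highest or the lowest for most of them. KO 1 was the lowest for Tnp2, Odf2 and Akap4 and the highest for Ldhc, and KO 3 was the highest for Prm2 and Pgk2.

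The genes most like the 3 members with the largest SD were named by correlation over the 10 arrays, as a description. Fhl5 was closest to Klrb1f (r = 0.957), Fap (0.939) and Itga4 (0.932). Tnp1 was closest to 1700071K01Rik (0.956), H2ac4 (0.934) and Cdca3 (0.927), and Pgk2 to Tlcd3b (0.976), Clca3a2 (0.950) and Sprr2h (0.950). These were picked as the highest among all genes, and Pgk2 was far higher on KO 3 than on the other arrays.

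Other germ cell genes were set beside the 10. Of 33 further genes of spermatids, 24 had higher and 9 lower means in KO, with a median difference of 0.03, and 0 passed the adjusted test. When batch was blocked, 12 were higher and 21 lower, with a median of -0.07. Their median level was 6.11, and 11 were above the 95th percentile of the olfactory receptor genes, among them Prm3, Odf3, a further outer dense fibre gene at 6.93, and Acr, the acrosomal protease at 6.85. Catsper3, a subunit of the sperm calcium channel, averaged 5.37 in KO and 5.07 in WT (difference 0.31, standard error 0.13, 0.45 when batch was blocked). It was the 1 gene of the 33 at an unadjusted p under 0.05. Of all probes, 0.923% were higher and 2.5% lower in KO at that threshold. The mean level of Catsper3 was below the 95th percentile of the olfactory receptor genes. Odf4 averaged 5.50 in KO and 5.30 in WT (difference 0.20, standard error 0.10, 0.12 when batch was blocked). Tssk2 was lower in KO (difference -0.19, standard error 0.14, -0.46 when batch was blocked). Means of the olfactory receptor genes were also mostly higher in KO, for 710 of 1012, with a median difference of 0.05.

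A list of 18 markers of earlier germ cells also held the oocyte genes Gdf9, Zp3, Zp2, Figla and Nobox. Of the 18, 13 had higher and 5 lower means in KO, with a median difference of 0.05, and 0 passed the test. When batch was blocked, 8 were higher and 10 lower, with a median of -0.01. Their median level was 5.44, and 1 of 18 was above the 95th percentile of the olfactory receptor genes, the oocyte growth factor Gdf9 at 6.77. Stra8, which marks entry into meiosis, averaged 4.99 in KO and 4.84 in WT. The largest difference in the list was that of Sycp3, which averaged 4.81 in KO and 4.22 in WT. It was 0.60 (standard error 0.37), and 0.80 when batch was blocked. Ddx4, the germ cell helicase, averaged 4.56 in KO and 4.46 in WT.

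A list of 13 genes held Crem itself, related factors, partners of CREM and other regulators of germ cells, among them the piRNA pathway genes Piwil1, Mael and Tdrd6. Of these, 6 had higher and 7 lower means in KO, and 0 passed the test. Their median difference was -0.01 (-0.10 when batch was blocked) and their median level 6.59. Of the 13, 7 were above the 95th percentile of the olfactory receptor genes. Among these, Atf1 averaged 9.45 in KO and 9.45 in WT, Creb1 8.97 in KO and 8.64 in WT, and Tbpl1, a TBP-like factor of spermatids that other tissues also hold, 8.67 in KO and 8.77 in WT. When batch was blocked, the differences were 0.47 for Atf1, 0.79 for Creb1 and 0.24 for Tbpl1. Kif17, a kinesin that moves FHL5 in spermatids, averaged 7.12 in KO and 7.17 in WT (difference -0.05, and -0.53 when batch was blocked). Gtf2a1l, the germ cell form of a TFIIA subunit, averaged 6.58 in KO and 6.60 in WT. Of the genes at or below that percentile, Mael averaged 4.40 in KO and 4.57 in WT (difference -0.18, standard error 0.10). Taf7l averaged 5.27 in KO and 5.10 in WT (difference 0.17, standard error 0.14).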

How the data were processed

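The authors deposited 1 log2 value per transcript cluster and array, made by RMA according to the submitters' processing notes. Of 35557 rows, 9868 held no values and 25 measured control probes were left out, leaving 25664. Where a gene had several probes annotated to it alone, the one with the highest mean stood for it. The genotypes were compared in R 4.3.3 with lmFit and eBayes of limma 3.58.1 (two-sided, Benjamini-Hochberg over all probes, threshold 0.05) and, per gene, by exact permutation over arrays. Arrays were taken as separate mice, since the labels number the animals; the number of arrays limits the precision. Batch was fitted as a block and within batches 1 and 3, where a lone array is assumed to vary like the other group. The procedure was tested on simulated data that held no batches and no RNA of other tissues. Of changes of 0.5, 1 and 2 log2 units, it recovered 16.7%, 61.9% and 92.5%, so small differences can be missed. The changed probes were drawn at random from all probes, so these rates are not specific to the 10 genes. The genes and lists were chosen with earlier results of these data known. Named were all 10 genes, up to 4 per list with the smallest p, genes most correlated with the 3 most variable members, and set relatives; Odf3, Acr, Akap3, Akap1, Fhl4, Gdf9, Ddx4, Atf1, Tbpl1, Kif17, Gtf2a1l, Piwil1, Mael and Tdrd6, the 95th percentile and the printed promoter stretches were chosen after values were seen. Of the genes with a probe, 15401 of 19661 had a RefSeq window. The alternatives were batch fits, other scalings, brighter probes, trend and robust eBayes, array weights, arrays left out and another adjusted p threshold. RMA itself could not be repeated, and how it handled batches is unknown here. Figures were drawn with matplotlib 3.10.9.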

Additional observations from a re-analysis of the deposited data

Results flagged for a closer look

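Pgk2 on KO 3 stood apart from the other KO arrays, at 5.69 against 4.91 to 5.03 on the other 4, a gap of 0.841 of the whole range of the group. Of the 20 groups examined in this way (10 genes in each genotype) this was the 1 found, and chance gives about 1 in 20. KO 3 was also 1 of the 2 arrays with fat marker means above 12, and the part of other tissue in the Pgk2 value was not tested.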

How the results depend on the processing

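In each alternative run, 0 of all probes and 0 of the 10 genes passed the adjusted p threshold of 0.05, and 0 probes did at 0.1; the number of probes at an unadjusted p under 0.05 was 878 over all arrays and lay between 224 (within batch 1) and 3126 (without KO 2, KO 5 and WT 3) in the alternatives, with 1843 for batch as a block. The median difference over the 10 genes, 0.06 as reported, was -0.074 when batch was blocked, -0.10 in batch 1, -0.0081 in batch 3, 0.12 without KO 2, KO 5 and WT 3, and -0.022 without KO 1 and KO 3, and lay between -0.0014 and 0.089 with 1 array left out at a time. Odf2 and Fhl5 kept their direction in every alternative run. Prm1 turned to -0.15 (block), -0.017 (random block), -0.29 (batch 1), -0.031 (batch 3), -0.00060 (common median), -0.014 (repeated quantile normalisation), -0.0054 (array weights) and -0.049 (without KO 1 and KO 3). Tnp2 turned to -0.080 (block), -0.10 (batch 1), -0.062 (batch 3) and -0.011 (repeated quantile normalisation). Pgk2 turned to -0.075 (block), -0.16 (batch 1) and -0.048 (without KO 1 and KO 3). Within batch 3, Tnp1 turned to 0.12, Odf1 to -0.011 and Ldhc to -0.0056. Without KO 1 and KO 3, Prm2 turned to -0.054 and Akap4 to 0.0080. Leaving out 1 array at a time, the difference ranged between -0.033 and 0.082 for Prm1, -0.16 and 0.018 for Tnp1, -0.023 and 0.061 for Tnp2, -0.020 and 0.18 for Pgk2, and -0.062 and 0.014 for Akap4, and for the other 5 genes it kept its sign. The cause of these turns was not tested. Only Odf2 was among the brighter probes, and since each of the 10 genes has 1 probe, averaging probes changed nothing. No paired analysis was possible because the mouse numbers in the labels name animals and pair no KO mouse with a WT mouse.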
